A study of Mus musculus with 12 samples.

Results

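Nuclear RNA of spinal cord microglia was compared between mice killed 3 days after spinal cord injury and sham-operated mice. The comparison uses 6 of the 12 libraries of the study: 3 labelled as 3 days after injury (replicates 1, 2 and 3) and 3 labelled sham (replicates 2, 3 and 4). The other 6 libraries come from 7 and 14 days and enter the shared estimate of spread and the last results only. All mice were C57BL/6, and every library pools cord tissue of 3 animals from both sides of the lesion. The libraries hold RNA of nuclei labelled by green fluorescent protein (GFP), pulled down with an anti-GFP antibody and magnetic protein G beads, which the labels call microglia-specific. The RNA was amplified before sequencing. The sources used here do not give the promoter that drives GFP, the age and the sex of the mice, or the way the cord was injured. The sham libraries carry the label of 7 days, so time since surgery differs between the groups as well as injury. Nothing in the labels says whether the 3 pools of a group were prepared separately, so p-values measure the spread between these pools.

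Levels are CPM (counts relative to the library total, scaled by TMM). A gene is called when edgeR's quasi-likelihood p, adjusted by Benjamini-Hochberg across the 18451 genes tested, is under 0.05. Log2 fold changes are 3 days minus sham, given ± SE, and per-library values follow the replicate order. Total counts were 4003480 to 7064757 in the sham and 4344015 to 10670804 in the 3-day libraries. The sham libraries were less alike (Pearson r of log2 CPM 0.880 to 0.944) than the 3-day libraries (0.962 to 0.971). Sham replicate 4 stood apart: its astrocyte markers summed to 5938 CPM, while the other sham libraries had 738 and 1733 CPM, so results that move without it are given both ways. Y-linked transcripts summed to less than 1 CPM in sham replicate 2 and in 3-day replicates 1 and 3. They summed to 291 to 348 CPM in sham replicates 3 and 4 and in 3-day replicate 2. Each group thus mixes both kinds of pool, but unevenly, and the fit does not account for this. All 14 microglial markers were detected. Their sum was 9700, 7227 and 7736 CPM in the sham libraries and 6079, 6089 and 5066 CPM at 3 days, and the groups did not overlap (p = 0.10 in a two-sided exact permutation test, which cannot go lower with 3 libraries a group). Of their 15 tested rows (Itgam is listed under 2 identifiers) 4 were lower and 0 higher (1 higher without sham replicate 2, 7 lower without sham replicate 4). The homeostatic markers Siglech (-1.20 ± 0.19), Gpr34 (-2.09 ± 0.40) and P2ry12 fell, while the microglial membrane protein Tmem119 stood at 133, 233 and 172 CPM in sham and 150.3, 164 and 154 CPM at 3 days, with overlapping groups. With bulk libraries, fewer nuclei of a type and less RNA per nucleus cannot be told apart.

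Microglia are the resident macrophages of the central nervous system. After injury they leave their surveying state, divide, migrate to the lesion and take up debris, together with macrophages that enter from the blood. Nuclear RNA holds unspliced and newly made transcripts, and it also holds the long precursors from which microRNAs (miRNAs) are cut. A miRNA pairs with its targets mainly through its seed, bases 2 to 8, and miRNAs with the same seed share many targets.

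Several transcripts that carry miRNA hairpins or lie beside them differed between the groups. Mature sequences of these loci from RefSeq (GRCm38.p6) are shown. The seeds AGCAGCA and ACAUUCA recur at more than 1 locus, where transcripts moved in opposite directions or together. Each of the other seeds belongs to a single miRNA among those shown. The mature miRNAs themselves were not measured. Capitals mark the seed.
miR-99a-5p, chr16:77598940-77598961, plus strand: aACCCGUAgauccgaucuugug
let-7c-5p, chr16:77599672-77599693, plus strand: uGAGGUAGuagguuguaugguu
miR-125b-5p, chr16:77646279-77646300, plus strand: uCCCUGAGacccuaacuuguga
miR-15a-5p, chr14:61632075-61632096, minus strand: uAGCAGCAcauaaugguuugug
miR-16-5p, chr14:61631936-61631957, minus strand and chr3:69009918-69009939, plus strand: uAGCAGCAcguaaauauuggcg
miR-15b-5p, chr3:69009775-69009796, plus strand: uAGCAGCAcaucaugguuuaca
miR-181a-5p, chr1:137966468-137966490, plus strand and chr2:38852741-38852763, plus strand: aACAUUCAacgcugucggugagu
miR-181b-5p, chr1:137966650-137966673, plus strand and chr2:38853845-38853868, plus strand: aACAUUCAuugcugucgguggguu
miR-21a-5p, chr11:86584120-86584141, minus strand: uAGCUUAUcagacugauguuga
miR-27b-3p, chr13:63300760-63300780, plus strand: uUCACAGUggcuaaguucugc
miR-24-3p, chr13:63301251-63301272, plus strand: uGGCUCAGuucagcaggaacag

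The noncoding host of miR-99a and let-7c-1 fell. Mir99ahg (chr16:77236317-77773427, plus strand) stood at 366, 328 and 582 CPM in the sham libraries and 189.5, 176 and 149.9 CPM at 3 days (log2 fold change -1.31 ± 0.22, adjusted p = 0.00087). All 3 libraries at 3 days lay below all sham libraries, as they did for 15.5% of all tested genes (they lay above for 18.7%), and without sham replicate 4, the highest, the log2 fold change was -1.05. The longest run of neighbouring genes called in the same direction, 12 lower features between 77381950 and 77649426 of chromosome 16, lies inside the span of this host. The miR-125b-5p sequence shown above also lies within that run. Of the 12, 11 are unconfirmed transcripts (TEC), 10 of them on the strand of Mir99ahg, so they are not independent of it.

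The miR-15a/16-1 and miR-15b/16-2 clusters, which share the seed AGCAGCA, lie in hosts that moved apart. Dleu2 (chr14:61602839-61682373, minus strand), the noncoding host of miR-16-1 with the miR-15a sequence inside its span, was at 864, 546 and 833 CPM in sham and 454, 459 and 342 CPM at 3 days (log2 fold change -0.84 ± 0.20, adjusted p = 0.01). Its groups did not overlap, but the call was lost without 3-day replicate 3 (log2 fold change -0.73, adjusted p = 0.054). Smc4 (chr3:69004738-69034623, plus strand), a condensin subunit that compacts mitotic chromosomes and hosts miR-15b and miR-16-2 in its introns, was at 59.6, 37.5 and 64.4 CPM in sham and 189, 188 and 198 CPM at 3 days (log2 fold change 1.83 ± 0.24, adjusted p = 0.00012). Every 3-day library lay above every sham library.

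Both copies of the miR-181a/b pair, with the seed ACAUUCA, lie among transcripts that were lower at 3 days. On chromosome 1, Gm4258 (chr1:137898595-138000384, plus strand), which spans miR-181a-1 and miR-181b-1, was at 27.5, 21.3 and 15.7 CPM in sham and 7.52, 9.25 and 8.93 CPM at 3 days (log2 fold change -1.33 ± 0.26, adjusted p = 0.0032). On chromosome 2, Nr6a1os (chr2:38823257-38852370, plus strand), which ends upstream of miR-181a-2, was at 19.2, 19.4 and 33 CPM and 9.34, 8.65 and 8.26 CPM (log2 fold change -1.44 ± 0.28, adjusted p = 0.0027). In both loci the groups were fully separated. Further along chromosome 2, 5730507A11Rik fell by 2.05 ± 0.33 on the log2 scale. Whether these features are parts of the same precursor was not tested.

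Hosts of miR-21a and of the miR-23b/27b/24-1 cluster rose. Vmp1 (chr11:86583865-86683836, minus strand), a membrane protein of autophagosome formation whose gene overlaps miR-21a, was at 62.5, 69.5 and 56 CPM in sham and 178, 146 and 125 CPM at 3 days (log2 fold change 1.25 ± 0.22, adjusted p = 0.0014). The gene 2010111I01Rik (chr13:62964893-63326096, plus strand) was at 41.5, 54.4 and 34.2 CPM and 141, 128 and 119 CPM (log2 fold change 1.58 ± 0.18, adjusted p = 5.2e-05). Neither gene overlapped between groups. Of the 534 tested genes that span a hairpin on their own strand, 110 were higher (20.6%, against 10.9% of all tested genes) and 37 were lower (6.93%, against 9.17%). Of the host genes 489 are protein-coding, and of all tested protein-coding genes 13% were higher. The genes of these miRNA loci, Dleu2 apart, were chosen after their values were seen, as were Siglech, Gpr34, Tmem119, Ifit1, Gbp7, Kif11, Ch25h and Ccr2 in the other paragraphs.

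**Figure D1:**
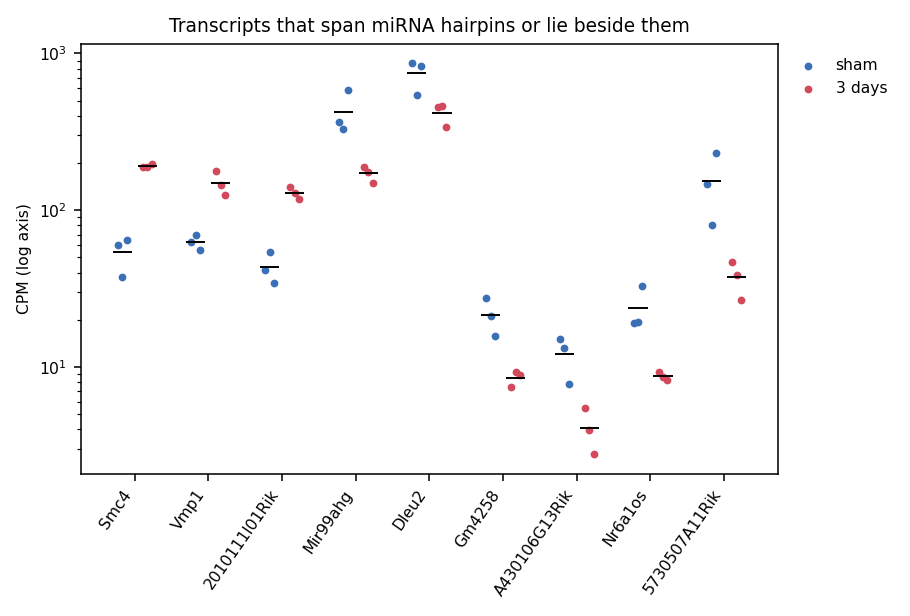
Level of each transcript that spans or neighbours the named miRNA hairpins, in CPM on a log axis. Points are single libraries, blue for sham and red for 3 days, and black lines are means of 3 libraries. Smc4, Vmp1 and 2010111I01Rik sit higher at 3 days in every library, and the other 6 sit lower.

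Promoters of interferon and cell division genes are shown next because many members of these groups rose, though not all. Each sequence is from RefSeq (GRCm38.p6) and ends at the base before the annotated start of its gene, read on the gene's strand. Uhrf1 has 2 listed promoter windows, and the first listed is shown. Capitals mark matches on either strand to GAAA, any 2 bases and GAAA again (the ISRE core, bound by interferon-activated factors) in the first group, and to TTTGAA (the CHR element), CCAAT (the CCAAT box) or TTCCCGC (the E2F site) in the second. These motifs do not share letters where they are marked.
Ifit1, chr19:34640769-34640888, plus strand: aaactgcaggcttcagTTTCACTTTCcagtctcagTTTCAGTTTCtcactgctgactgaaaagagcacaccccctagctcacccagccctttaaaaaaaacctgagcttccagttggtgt
Oas3, chr5:120777660-120777759, minus strand: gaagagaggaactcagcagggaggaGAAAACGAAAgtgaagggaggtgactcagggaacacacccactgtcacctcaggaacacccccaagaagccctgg
Gbp7, chr3:142530236-142530335, plus strand: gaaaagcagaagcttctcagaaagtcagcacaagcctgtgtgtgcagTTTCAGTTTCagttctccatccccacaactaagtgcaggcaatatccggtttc
Irgm2, chr11:58214877-58214976, plus strand: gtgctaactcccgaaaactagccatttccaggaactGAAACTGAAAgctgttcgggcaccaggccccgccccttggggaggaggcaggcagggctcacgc
Top2a, chr11:99024190-99024309, minus strand: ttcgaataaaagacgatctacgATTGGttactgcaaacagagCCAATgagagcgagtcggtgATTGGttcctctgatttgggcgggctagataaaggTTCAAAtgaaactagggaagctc
Kif11, chr19:37376282-37376381, plus strand: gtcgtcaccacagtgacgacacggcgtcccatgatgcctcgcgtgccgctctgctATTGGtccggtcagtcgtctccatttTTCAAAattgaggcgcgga
Uhrf1, chr17:56303237-56303336, plus strand: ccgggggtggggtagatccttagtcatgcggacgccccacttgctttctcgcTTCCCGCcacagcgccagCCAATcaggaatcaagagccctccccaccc

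The first 4 sequences carry the same core, and only some of the genes behind them changed. Ifit1, which binds foreign RNA ends, was at 3.63, 5.03 and 16.8 CPM in sham and 42.1, 51.3 and 64 CPM at 3 days (log2 fold change 2.69 ± 0.42, adjusted p = 0.00057). Without sham replicate 4 its log2 fold change was 3.59. Oas3, a sensor of double-stranded RNA, was at 1.67, 2.29 and 1.68 CPM and 16.6, 24.4 and 47.6 CPM (log2 fold change 3.98 ± 0.43, adjusted p = 3.1e-05). Gbp7, a guanylate-binding protein, was at 63.4, 61.3 and 89 CPM and 59.4, 52.9 and 90.9 CPM. The first pair of genes was fully separated between groups, whereas Gbp7 overlapped and had a log2 fold change of -0.07 (95% interval -0.61 to 0.47). Irgm2, an immunity-related GTPase, was at 90.7, 91.2 and 109 CPM and 90.9, 83.3 and 111 CPM, with a log2 fold change of -0.03 (-0.48 to 0.42).

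Of 11424 tested genes with a promoter window of 250 bases before the start, 2.76% held the ISRE core on either strand. For 2306 of these genes more than 1 window was listed, and only the first listed was searched. Among the promoters of interferon-stimulated genes 8 of 22 held it (36.4%). It was in 9 of 11 promoters (81.8%) of the guanylate-binding proteins and immunity-related GTPases, and in 63 of 1453 promoters (4.34%) of all genes called higher. The CCAAT box was in 35.9% of all windows, 22 of 28 mitosis promoters (78.6%) and 21 of 31 replication promoters (67.7%). The CHR element was in 10.67% of all windows, 7 of 28 mitosis promoters (25%) and 3 of 31 replication promoters (9.68%). The E2F site was in 6.66% of all windows, 9 of 31 replication promoters (29.0%) and 0 of 28 mitosis promoters. Over all genes called higher the last 3 motifs were in 36.3%, 12.5% and 7.91% of windows. In the 282 promoters of genes past a 2-fold rise they were in 47.5%, 15.2% and 7.09%, and the ISRE core was in 6.38%. With 100 bases before the start, the CHR element was in 3.03% of all windows, 4.75% of those of genes called higher and 8.16% of those past a 2-fold rise. For the E2F site these shares were 3.01%, 3.58% and 2.84%, and for the CCAAT box 22.4%, 24.6% and 34.0%. In all, 15 motifs were searched, and those not marked above also varied. The AP-1 site (TGANTCA, N for any base) was in 1.63%, 2.68% and 5.67%, and the TATA box (TATAAA) in 2.48%, 3.85% and 7.09%. The STAT site (TTCNNNGAA) was in 2.24%, 1.45% and 1.77%, and the E-box (CACGTG) in 4.42%, 4.68% and 3.19%. A match says only that these letters stand in the window.

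Across all genes, 2003 were higher (10.9%) and 1692 were lower (9.17%) at 3 days, 20.0% in all. Past a 2-fold change by edgeR's glmTreat the balance was uneven, with 402 genes higher (2.18%) and 64 lower (0.347%). The median log2 fold change was 1.37 among called rises and -1.10 among called falls. The genes that rose summed to 73492 CPM in sham and 168345 CPM at 3 days, and those that fell went from 214054 to 108432 CPM. The counts depended on which libraries were kept: without 3-day replicate 2 there were 1224 higher and 836 lower genes, and without 3-day replicate 3 there were 1109 and 757. Past 2-fold the counts were 230 and 26 without 3-day replicate 2, and 251 and 16 without 3-day replicate 3, and 103 and 108 genes fell without sham replicates 2 and 3.

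**Figure D2:**
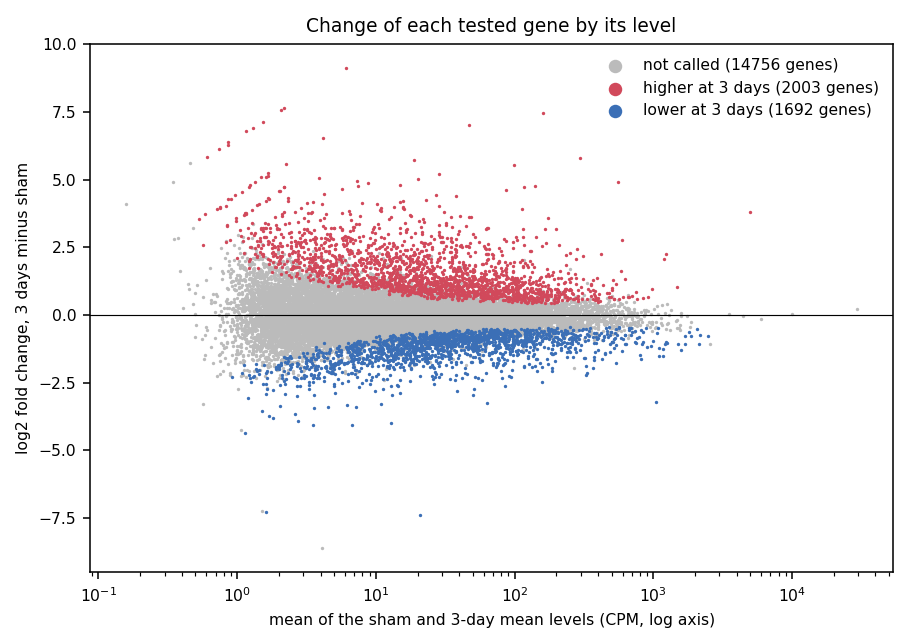
Log2 fold change of every tested gene (3 days minus sham) against the mean of its sham and 3-day levels in CPM on a log axis. Grey points are genes not called, red the 2003 higher and blue the 1692 lower genes. Of the called genes 402 rises and 64 falls pass the 2-fold test.

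Several of the 10 largest rises outside the gene lists were genes of cell division. Troap, a spindle protein, stood at 0.303, 1.60 and 1.4 CPM in sham and 23.9, 34.7 and 27.9 CPM at 3 days (log2 fold change 4.81 ± 0.65, adjusted p = 0.0002). Melk, a mitotic kinase, rose by 4.77 ± 0.58 on the log2 scale, and Pkmyt1, the kinase that holds cyclin-dependent kinase 1 inactive, rose by 4.25 ± 0.49. The kinesins Kif18b and Kif2c rose by 4.02 ± 0.45 and 4.01 ± 0.44, Ube2c, which marks mitotic cyclins for destruction, by 3.85 ± 0.49, and Clspn, a checkpoint mediator, by 3.81 ± 0.41. Helz2, a helicase and coactivator, was at 4.69, 6.63 and 9.52 CPM in sham and 126, 163 and 208 CPM at 3 days (log2 fold change 4.61 ± 0.33, adjusted p = 1.5e-06). Robo4, a receptor known from endothelium, was at 0.303, 0.686 and 2.80 CPM and 9.79, 9.86 and 37.3 CPM (log2 fold change 4.08 ± 0.71, adjusted p = 0.0013), with 3-day replicate 3 well above the rest. Its log2 fold change was 3.07 without that library, 3.48 without sham replicate 2 and 5.29 without sham replicate 4. Troap and Melk stood at 4.21 and 4.17 without sham replicate 2, and Kif18b at 4.6 without sham replicate 4. The summed endothelial markers move the same way across these libraries, and their part in the Robo4 value was not tested.

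The largest falls included genes better known from neurons. Slc5a7, the choline transporter of cholinergic neurons, was at 9.39, 9.83 and 20.2 CPM in sham and 1.59, 2.43 and 2.02 CPM at 3 days (log2 fold change -2.66 ± 0.39, adjusted p = 0.00038). Vsnl1, a neuronal calcium sensor, was at 197, 306 and 1106 CPM and 108, 128 and 105 CPM (log2 fold change -2.24 ± 0.46, adjusted p = 0.004), and without sham replicate 4, its highest library, the log2 fold change was -1.17. Hnmt, which inactivates histamine, was at 11.4, 9.14 and 11.5 CPM and 3.19, 1.21 and 1.63 CPM (log2 fold change -2.45 ± 0.51, adjusted p = 0.0043). The Wnt antagonist Sfrp1 fell by 2.20 ± 0.44 and the cation channel Trpc5 fell by 2.05 ± 0.35 on the log2 scale. The summed neuron markers were lower in the same libraries, from 1833, 2005 and 3553 CPM in sham to 892, 1035 and 998 CPM at 3 days. Their part in these falls was not tested.

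By change in CPM, which also grows with transcript length, the largest losses among called genes included Mef2a and Dock10. Mef2a, a transcription factor of the microglial enhancer landscape, was at 2285, 2303 and 4113 CPM in sham and 1547, 1375 and 1157 CPM at 3 days (log2 fold change -1.09 ± 0.26, adjusted p = 0.0092). Dock10, a guanine nucleotide exchange factor, was at 3401, 2516 and 3449.8 CPM and 1792, 1867 and 1754 CPM (log2 fold change -0.79 ± 0.17, adjusted p = 0.0046). All sham libraries exceeded all 3-day libraries for both genes. Chd9, a chromatin remodeller, fell by 1.09 ± 0.20, Tanc2, a scaffold protein, fell by 1.08 ± 0.17, Abca9, a lipid transporter, fell by 1.53 ± 0.18 and Csmd3 fell by 1.53 ± 0.26 on the log2 scale. On the gaining side, Rnf213, a large interferon-responsive ubiquitin ligase, was at 502, 505 and 373 CPM in sham and 1752, 1528 and 2496 CPM at 3 days (log2 fold change 2.07 ± 0.23, adjusted p = 4.0e-05). Abca1, the cholesterol exporter, was at 284, 283 and 296 CPM and 882, 957 and 791 CPM (log2 fold change 1.61 ± 0.17, adjusted p = 2.5e-05), and the endocytic receptor Lrp1 rose by 1.02 ± 0.20. The predicted gene Gm26917 gained most, from 223, 1487 and 320.3 to 8674, 10806 and 8541 CPM, with wide spread among sham libraries.

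Some abundant transcripts were measured narrowly. The 95% interval of the log2 fold change lay within 0.5 of 0 for 798 genes (4.32%), and within 1 for 6155 genes (33.4%). The splicing cofactor Srrm2 had an interval of -0.39 to 0.34, the cytoskeletal linker Dst -0.37 to 0.43, the adaptor Fyb -0.42 to 0.35 and the ubiquitin ligase Huwe1 -0.22 to 0.38. Plxnb2, the semaphorin receptor named in the title of the study, was at 318, 343 and 259.5 CPM in sham and 459.9, 479.5 and 464 CPM at 3 days (log2 fold change 0.61 ± 0.16, adjusted p = 0.018). Its groups did not overlap, and the call was lost without 3-day replicate 1, 2 or 3 (adjusted p = 0.051, 0.071 and 0.064) with log2 fold changes of 0.59, 0.57 and 0.59. Of 33 tested semaphorin signalling partners 10 were higher and 1 was lower (6 higher without 3-day replicate 3, 3 lower without sham replicate 2, 4 lower without sham replicate 3). Among them the redox enzyme Mical1 rose by 1.83 ± 0.27, Nrp1 by 0.96 ± 0.15 and Plxnc1 by 1.37 ± 0.22, and Plxna4 fell by 1.10 ± 0.20.

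**Figure D3:**
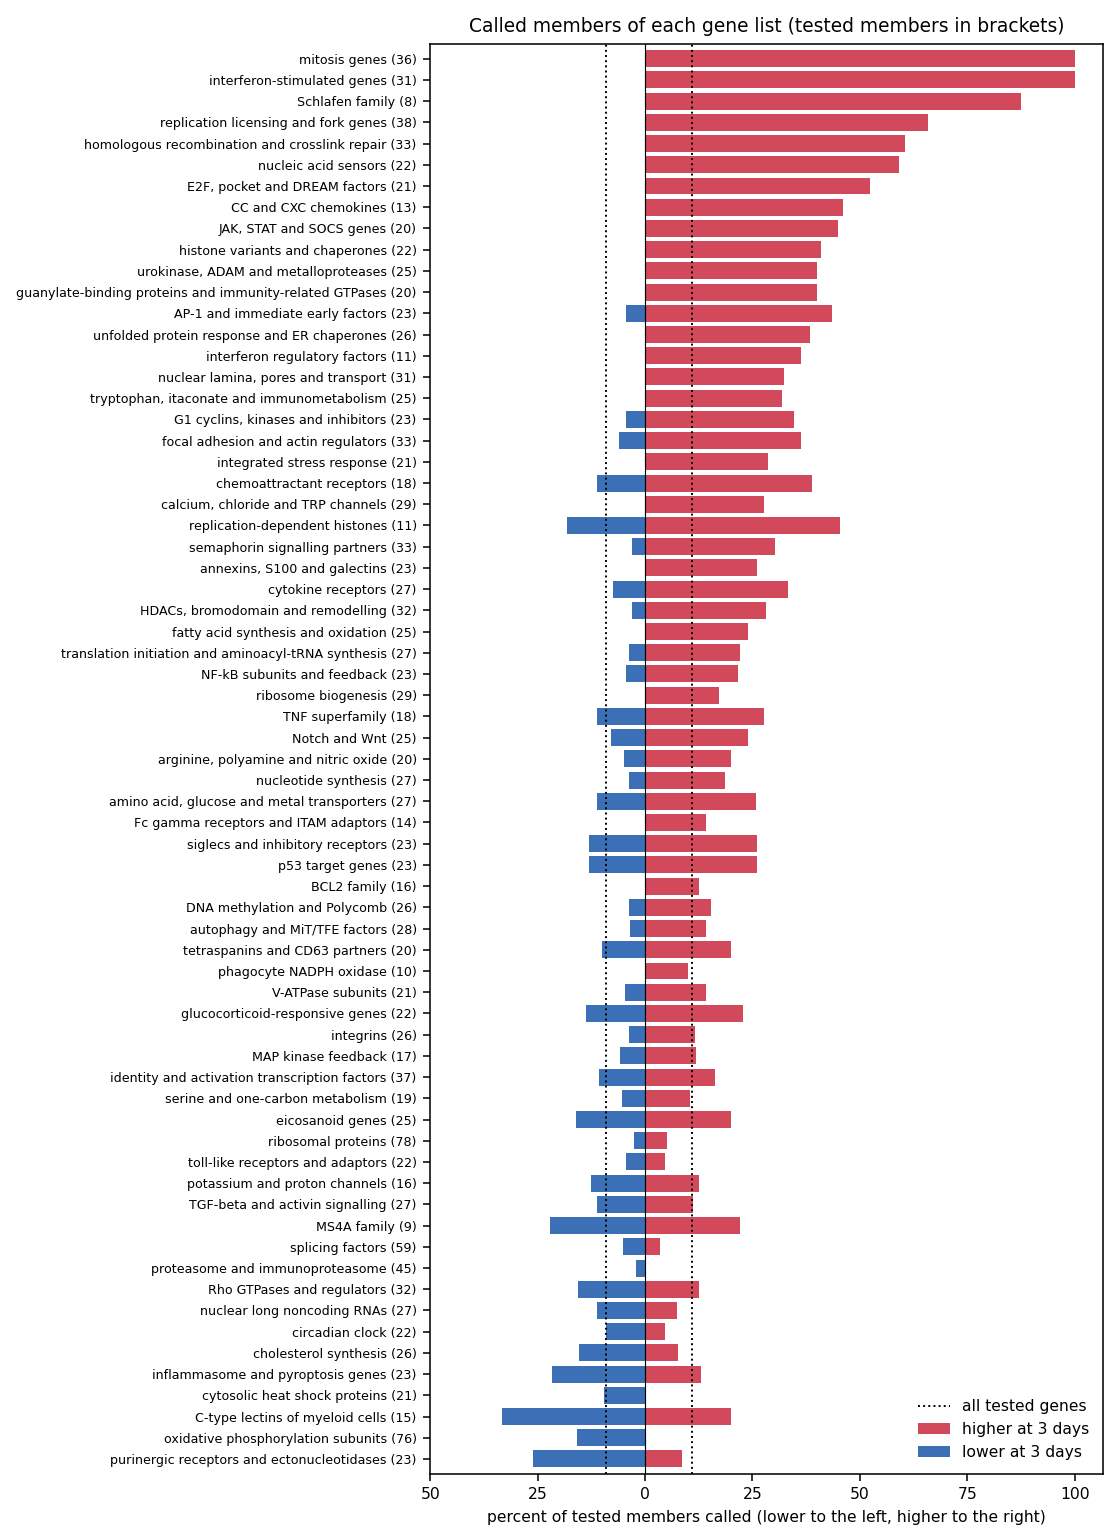
Percent of the tested members of each of 67 gene lists that were called higher (red, to the right) or lower (blue, to the left) at 3 days. Dotted lines are the shares of all tested genes, 10.9% higher and 9.17% lower. The lists on mitosis and on interferon-stimulated genes reach 100% higher, and the list of oxidative phosphorylation subunits has no member higher. List members were chosen with earlier results of these data known.

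Over all tested genes 10.9% were higher and 9.17% lower, and the list counts that follow are to be read beside these shares. Of 23 tested siglecs and inhibitory receptors 6 were higher and 3 lower (7 lower without sham replicate 2 or sham replicate 3). Cd300lf, a lipid-binding inhibitory receptor, was at 13.9, 15.8 and 12 CPM in sham and 182, 261 and 194 CPM at 3 days (log2 fold change 3.93 ± 0.22, adjusted p = 8.7e-08). Lilrb4a, a receptor with inhibitory tyrosine motifs, was at 347, 397 and 546 CPM and 2067, 2104 and 1998 CPM (log2 fold change 2.26 ± 0.24, adjusted p = 2.5e-05). The lowest 3-day library was above the highest sham library by a wide margin for both. The lectin Cd22 rose by 2.56 ± 0.31 and Cd300lb by 1.91 ± 0.26. The abundant Cd33 was at 1635, 1378 and 2562 CPM in sham and 1365, 1312 and 1067 CPM at 3 days, which did not pass the test (adjusted p = 0.055).

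Of 22 tested Toll-like receptors and adaptors 1 was higher and 1 lower (3 lower without sham replicate 2 or sham replicate 3). Tlr5, the flagellin receptor, was at 45.3, 37.5 and 48.2 CPM in sham and 4.56, 9.56 and 10.5 CPM at 3 days (log2 fold change -2.38 ± 0.36, adjusted p = 0.00044). Tlr2, which senses bacterial lipoproteins, was at 38, 25.8 and 17.6 CPM and 69.9, 59.3 and 55.7 CPM (log2 fold change 1.17 ± 0.27, adjusted p = 0.0072). Both were separated between the groups, in opposite directions. The abundant Unc93b1, which carries endosomal Toll-like receptors to their compartment, had a log2 fold change of 0.18 ± 0.17. Of 15 tested C-type lectins 3 were higher and 5 lower (3 lower without 3-day replicate 1). Clec2d rose by 1.51 ± 0.27 and Clec4e, a sensor of dying cells, by 3.03 ± 0.70 (3.77 without sham replicate 2). Mgl2 fell by 2.74 ± 0.47 and Clec4a2 fell by 1.92 ± 0.34.

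Of the chemokines, those that passed the test rose. Of 13 tested CC and CXC chemokines 6 were higher (6 to 8 with each library left out) and 0 lower. Cxcl10, an interferon-induced attractant of T cells, was at 0.757, 1.14 and 3.08 CPM in sham and 28, 29.9 and 26.6 CPM at 3 days (log2 fold change 4.19 ± 0.40, adjusted p = 1.2e-05). Without sham replicate 4 its log2 fold change was 4.88. Ccl3 was at 10.9, 11.4 and 12.3 CPM and 64.2, 74.2 and 50.3 CPM (log2 fold change 2.45 ± 0.23, adjusted p = 1.1e-05). Ccl2, the ligand of the monocyte receptor Ccr2, rose by 2.21 ± 0.37, and Ccl4 by 1.65 ± 0.37. Each of the 4 was separated between the groups. Among 18 tested chemoattractant receptors 7 were higher and 2 lower (4 higher without 3-day replicate 3, 1 lower without 3-day replicate 2, 3-day replicate 3 or sham replicate 3, 4 lower without sham replicate 4). Cxcr4, the receptor of Cxcl12, was at 1.06, 1.37 and 1.68 CPM in sham and 17.5, 19.4 and 22.8 CPM at 3 days (log2 fold change 3.89 ± 0.37, adjusted p = 1.1e-05). The complement receptor C3ar1 rose by 0.88 ± 0.16 and the sphingosine phosphate receptor S1pr1 by 1.45 ± 0.28, while the complement receptor C5ar2 fell by 1.41 ± 0.24. The fractalkine receptor Cx3cr1 was at 309, 268 and 252 CPM in sham and 222, 176 and 139 CPM at 3 days (adjusted p = 0.057).

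Il1rn, the antagonist of interleukin 1, had no count in any sham library and was at 12.8, 14.7 and 9.03 CPM at 3 days, at least 18.5-fold higher than a floor of 3 counts per sham library (adjusted p = 2.5e-05). The signalling receptor Il1r1 was at 3.33, 7.77 and 13.2 CPM in sham and 29.2, 43.4 and 54.6 CPM at 3 days (log2 fold change 2.45 ± 0.38, adjusted p = 0.00049). Of 27 tested cytokine receptors and decoys 9 were higher and 2 lower (1 lower without 3-day replicate 1, 3-day replicate 2 or sham replicate 4). Csf2rb, the shared beta chain of the GM-CSF receptor, rose by 0.89 ± 0.15. The abundant receptor Csf1r, on which microglia depend, was at 1383, 1285 and 874 CPM in sham and 1108, 1159 and 1032 CPM at 3 days, with overlapping groups. Of 18 tested TNF superfamily genes 5 were higher and 2 lower (no library left out moved either count by more than 1.5 times). Tnf was at 2.42, 3.66 and 1.68 CPM and 18.9, 17.1 and 21.2 CPM (log2 fold change 2.87 ± 0.33, adjusted p = 5.7e-05), and Tnfsf13b, the B cell survival factor BAFF, was at 148, 227 and 433 CPM and 79, 82.1 and 71.1 CPM (log2 fold change -1.80 ± 0.30, adjusted p = 0.00096). In the TGF-beta list 3 of 27 rose and 3 fell (5 higher without sham replicate 4, 1 lower without 3-day replicate 1, 3-day replicate 2, 3-day replicate 3 or sham replicate 4). These shares, 11.1% in each direction, lie near the 10.9% higher and 9.17% lower of all tested genes. Tgfbr1, the type I receptor of TGF-beta, which maintains microglial identity, was at 2518, 1617 and 2556 CPM in sham and 905, 986 and 858 CPM at 3 days (log2 fold change -1.28 ± 0.21, adjusted p = 0.00076), and all sham libraries were above all 3-day libraries.

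Transcripts of several genes that act downstream of interferon and cytokine receptors were higher at 3 days, and the activity of these pathways was not measured. Of 20 tested JAK, STAT and SOCS genes 9 were higher (6 to 8 with each library left out) and 0 lower. Stat2, a transcription factor of type I interferon signalling, was at 111, 169 and 154 CPM in sham and 609, 554 and 918 CPM at 3 days (log2 fold change 2.26 ± 0.24, adjusted p = 2.4e-05). Jak3, the kinase of the common gamma chain, was at 79.3, 108 and 94.3 CPM and 261, 277 and 315 CPM (log2 fold change 1.60 ± 0.21, adjusted p = 0.00015). Both feedback inhibitors Usp18 (1.61 ± 0.21) and Socs3 (2.92 ± 0.52) rose, and Stat6 and Jak1 had log2 fold changes of -0.10 ± 0.24 and 0.02 ± 0.17. In the NF-kB list 5 of 23 rose and 1 fell (3 higher without 3-day replicate 3, 2 lower without sham replicate 2 or sham replicate 4, 3 lower without sham replicate 3). Bcl3, a nuclear cofactor of NF-kB, was at 0.908, 1.14 and 0.560 CPM in sham and 10.5, 15.3 and 10.6 CPM at 3 days (log2 fold change 3.74 ± 0.40, adjusted p = 3.0e-05). Ikbke rose by 2.35 ± 0.28, while the kinase Ikbkb fell by 0.63 ± 0.14 and the subunit Nfkb1 stood at 285, 336 and 349 and 306, 312 and 286 CPM. Of 23 AP-1 and immediate early factors 10 rose and 1 fell (5 higher without 3-day replicate 2 or 3-day replicate 3, 0 lower without 3-day replicate 1, 3-day replicate 2, 3-day replicate 3, sham replicate 2 or sham replicate 3). Atf3 was at 7.27, 6.86 and 5.32 CPM and 38.7, 39 and 44.7 CPM (log2 fold change 2.64 ± 0.23, adjusted p = 5.0e-06), and Fosl2 rose by 1.62 ± 0.21.

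Interferon-stimulated genes rose as a whole list. All 31 tested interferon-stimulated genes were higher at 3 days, with a median log2 fold change of 2.18 against -0.03 over all genes, and 27 to 30 were called with each library left out. The members were chosen with earlier results of these data known, so the count is not independent of those results. Ifit2, of the RNA-binding Ifit family, was at 6.66, 8.46 and 7.00 CPM in sham and 82.2, 78.1 and 109 CPM at 3 days (log2 fold change 3.61 ± 0.28, adjusted p = 2.0e-06). Rsad2, the antiviral enzyme viperin, was at 2.72, 2.29 and 1.96 CPM and 41, 69.6 and 43.9 CPM (log2 fold change 4.43 ± 0.38, adjusted p = 4.0e-06). Among nucleic acid sensors 13 of 22 rose and 0 fell (13 or 14 rose with each library left out): Zbp1, a sensor of left-handed double helices, by 3.23 ± 0.30, Oasl1 by 3.90 ± 0.37 and Oasl2 by 2.18 ± 0.21. The DNA sensor Aim2 was at 371, 320.3 and 346 CPM in sham and 360.1, 317 and 384 CPM at 3 days, with overlapping groups. Of 11 interferon regulatory factors and their partners 4 rose, led by Irf7 (2.71 ± 0.25).

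In the Schlafen family, which restricts translation and proliferation, 7 of 8 tested genes rose. Slfn4 was at 1.06, 1.37 and 2.24 CPM in sham and 16.4, 81.2 and 68.4 CPM at 3 days (log2 fold change 5.21 ± 0.62, adjusted p = 6.8e-05), with 3-day replicate 1 below the other 3-day libraries and all 3 above sham. Slfn5 rose by 2.22 ± 0.25 and Slfn2 by 2.12 ± 0.31. Their close sequence similarity makes the split of reads between Schlafen copies uncertain. Among guanylate-binding proteins, immunity-related GTPases and Mx genes 8 of 20 rose and 0 fell (5 higher without 3-day replicate 3). Mx1, an antiviral GTPase, was at 35.7, 46.9 and 18.5 CPM and 237, 225 and 286 CPM (log2 fold change 2.88 ± 0.28, adjusted p = 1.4e-05), and Mx2 rose by 2.01 ± 0.25. Neighbouring genes rose together at the Ifit locus (8 in a row, chr19:34473778-34650009) and at the Schlafen locus (6 in a row, chr11:82951349-83070678). The Ifit run also holds Ch25h, which makes 25-hydroxycholesterol and was at 0.757, 0.914 and 0.280 CPM in sham and 31.9, 47 and 32.2 CPM at 3 days (log2 fold change 5.72 ± 0.41, adjusted p = 1.5e-06). It further holds Lipa, the lysosomal lipase.

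In the inflammasome and cell death list 3 of 23 rose and 5 fell (1 lower without 3-day replicate 3, 2 lower without 3-day replicate 2, 3 lower without 3-day replicate 1). The necroptosis pair rose: Ripk3 was at 2.42, 3.66 and 4.20 CPM in sham and 10.7, 10.5 and 9.13 CPM at 3 days (log2 fold change 1.58 ± 0.38, adjusted p = 0.01), and its substrate Mlkl was at 3.03, 0.457 and 0.280 CPM and 7.74, 9.71 and 12.9 CPM (log2 fold change 2.83 ± 0.60, adjusted p = 0.0049). Without sham replicate 2 the log2 fold change of Mlkl was 4.65. The cytokine Il18 fell by 0.91 ± 0.22, and the abundant Naip5 stood at 391, 388 and 367 CPM in sham and 442, 431 and 449 CPM at 3 days.

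Every mitosis gene in the list rose. All 36 mitosis genes were higher, with a median log2 fold change of 2.92, and all 36 were called with any library left out. This list too was drawn up with earlier results of these data known. Cenpe, a kinetochore motor, was at 26, 20.8 and 33.6 CPM in sham and 298, 324 and 336 CPM at 3 days (log2 fold change 3.58 ± 0.20, adjusted p = 8.7e-08). Top2a, which untangles chromosomes, was at 36.9, 17.4 and 43.4 CPM and 297, 303 and 290.0 CPM (log2 fold change 3.19 ± 0.28, adjusted p = 5.2e-06). Kif11, the spindle kinesin whose promoter is printed above, was at 10.3, 5.94 and 21.3 CPM and 111, 115 and 117 CPM (log2 fold change 3.22 ± 0.37, adjusted p = 5.8e-05). All 3 were separated between the groups. Of 38 replication licensing and fork genes 25 rose and 0 fell (22 to 24 with each library left out), with a median of 1.26. Uhrf1, which keeps DNA methylation through replication, was at 3.33, 5.72 and 2.24 CPM and 40.1, 41.3 and 41.6 CPM (log2 fold change 3.43 ± 0.36, adjusted p = 2.5e-05), whereas the helicase subunit Mcm7 was at 34.4, 27.4 and 22.4 CPM and 33.3, 37.3 and 42.5 CPM (adjusted p = 0.17).

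Of 21 E2F, pocket and DREAM factors 11 rose and 0 fell (9 to 11 with each library left out). The repressor E2f8 was at 6.81, 4.34 and 7.28 CPM in sham and 46.2, 54.8 and 53 CPM at 3 days (log2 fold change 3.06 ± 0.28, adjusted p = 8.0e-06), and Foxm1, the mitotic activator, at 13.6, 16.9 and 24.4 CPM and 106, 122 and 103 CPM (log2 fold change 2.61 ± 0.30, adjusted p = 5.8e-05). The pocket proteins Rb1 and Rbl2 had log2 fold changes of -0.29 ± 0.20 and -0.02 ± 0.15. Of 23 G1 cyclins, kinases and inhibitors 8 rose and 1 fell (5 higher without 3-day replicate 2, 3-day replicate 3 or sham replicate 3). The phosphatase Cdc25c was at 0.605, 0.457 and 0.560 CPM and 18.9, 18.5 and 13.3 CPM (log2 fold change 4.89 ± 0.42, adjusted p = 5.0e-06). The G1 kinase Cdk6 was at 372, 317 and 379.6 CPM and 198, 220.3 and 192 CPM (log2 fold change -0.81 ± 0.15, adjusted p = 0.002), and the inhibitor Cdkn1a, a target of p53, rose by 1.86 ± 0.37. Of 23 p53 target genes 6 rose and 3 fell (1 lower without 3-day replicate 2), among them the kinases Plk2 (2.26 ± 0.27) and Plk3 (2.25 ± 0.29).

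Of 33 homologous recombination and crosslink repair genes 20 rose (14 to 21 with each library left out) and 0 fell. The helicase Brip1 was at 8.02, 5.72 and 7.84 CPM in sham and 58.5, 51.7 and 49.4 CPM at 3 days (log2 fold change 2.88 ± 0.27, adjusted p = 1.1e-05), its partner Brca1 rose by 2.60 ± 0.28 and Fancd2 by 2.43 ± 0.27. Brca2 was at 72.4, 62.6 and 72.8 CPM and 79, 74.8 and 75.2 CPM and did not pass the test (adjusted p = 0.58). The centromeric histone Cenpa was at 28.3, 23.3 and 25.8 CPM and 154, 147 and 102 CPM (log2 fold change 2.38 ± 0.20, adjusted p = 2.8e-06), and 9 of 22 histone variants and chaperones rose (6 to 10 with each library left out). In the DNA methylation and Polycomb list 4 of 26 rose and 1 fell (3 lower without sham replicate 3). Hells, a remodeller needed for DNA methylation, rose by 2.17 ± 0.35, and the demethylase Tet1 was at 79.8, 102 and 184 CPM in sham and 35.5, 33.4 and 53.1 CPM at 3 days (log2 fold change -1.57 ± 0.27, adjusted p = 0.0011). The related Tet2 and Tet3 had log2 fold changes of -0.25 ± 0.18 and 0.10 ± 0.17.

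**Figure D4:**
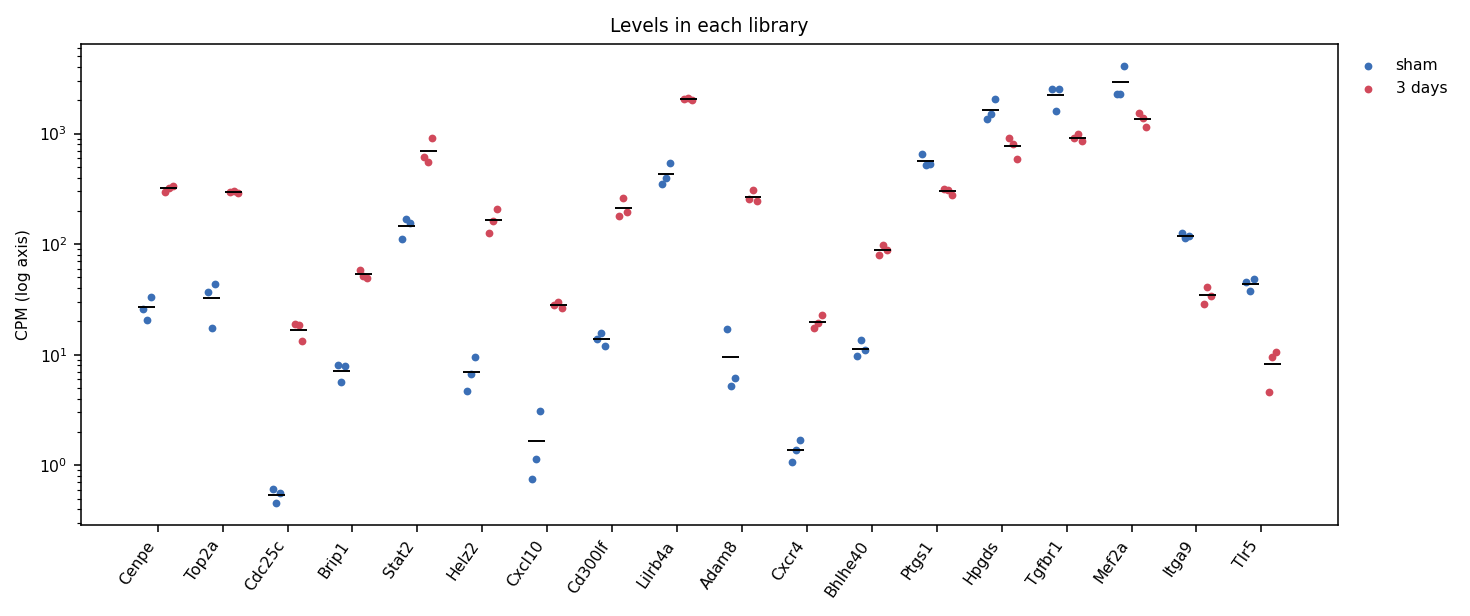
Level of 18 genes in each library, in CPM on a log axis. Blue points are sham and red points 3-day libraries, and black lines are means. The groups do not overlap for any of these genes. The first 12 are higher and the last 6 lower at 3 days.

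Few genes of the splicing, ribosome and proteasome lists were called. Of 59 splicing factors 2 rose and 3 fell (5 higher without sham replicate 2, 5 lower without sham replicate 3, 8 lower without sham replicate 4). Ptbp1, a repressor of exon inclusion, was at 90.1, 104 and 89 CPM in sham and 181, 166 and 181 CPM at 3 days (log2 fold change 0.90 ± 0.14, adjusted p = 0.00069). Celf2 fell by 1.02 ± 0.19 and Mbnl1 fell by 1.05 ± 0.22 on the log2 scale. Of 78 ribosomal protein genes 4 rose and 2 fell (2 higher without 3-day replicate 1, 3-day replicate 2 or 3-day replicate 3, 1 lower without 3-day replicate 2 or 3-day replicate 3, 11 lower without sham replicate 4), and of 45 proteasome genes 0 rose and 1 fell (1 higher without sham replicate 4, 3 lower without sham replicate 3, 5 lower without sham replicate 4). The proteasome gene that fell was the inhibitor Psmf1, with a log2 fold change of -0.87 ± 0.20. With all libraries kept, these shares lie below the 10.9% and 9.17% of all tested genes.

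Oxidative phosphorylation genes that passed the test fell. Of 76 tested subunits 0 rose and 12 fell (15.8%, against 9.17% of all tested genes), with a median log2 fold change of -0.56. The count moved with single libraries, at 4, 4 and 3 without 3-day replicates 1, 2 and 3, and 29 without sham replicate 4. In the same settings 1267, 836, 757 and 1946 of the 18451 tested genes were lower, so the excess over all genes depended on the libraries kept. Atp5f1, of the ATP synthase stalk, was at 41.3, 52.6 and 77 CPM in sham and 30.3, 25.9 and 27.6 CPM at 3 days (log2 fold change -1.02 ± 0.23, adjusted p = 0.0065), while the catalytic Atp5b was at 135, 238 and 268 CPM and 202, 172 and 161 CPM with overlapping groups. Of 27 nucleotide synthesis genes 5 rose and 1 fell (0 lower without 3-day replicate 3, 2 lower without sham replicate 2 or sham replicate 4), and Rrm2 and Rrm1, the subunits of ribonucleotide reductase, rose by 3.94 ± 0.43 and 1.60 ± 0.24. The amino acid transporter chain Slc3a2 rose by 1.41 ± 0.22, the glucose transporter family member Slc2a6 by 2.70 ± 0.27 and the zinc transporter Slc39a14 by 2.27 ± 0.24. Arg1, which splits arginine, was at 2.42, 5.03 and 3.08 CPM in sham and 49.9, 54 and 17.4 CPM at 3 days (log2 fold change 3.53 ± 0.43, adjusted p = 7.8e-05), with 3-day replicate 3 the lowest of its group and still above every sham library.

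Prostaglandin genes changed in opposite directions. Of 25 eicosanoid genes 5 rose and 4 fell (4 or 5 in each direction with each library left out). Ptgs2, the inducible cyclooxygenase, was at 0, 0.457 and 1.12 CPM in sham and 10.2, 17.6 and 14.4 CPM at 3 days (log2 fold change 4.94 ± 0.71, adjusted p = 0.00029). Its sham level rests on few counts, and its log2 fold change was 4.15 and 6.07 without sham replicates 2 and 4. Ptgs1, the constitutive cyclooxygenase, was at 659, 521 and 530.5 CPM and 313, 308 and 278 CPM (log2 fold change -0.93 ± 0.15, adjusted p = 0.00085). Hpgds, which makes prostaglandin D2, was at 1344, 1509 and 2061 CPM and 917, 804 and 594 CPM (log2 fold change -1.09 ± 0.19, adjusted p = 0.0013). All 3 genes were separated between the groups. The prostaglandin E2 receptor Ptger2 rose by 4.17 ± 0.69 (4.91 without sham replicate 3).

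Genes of the endoplasmic reticulum (ER) stress response were among those that rose. Of 26 unfolded protein response and ER chaperone genes 10 rose and 0 fell (6 higher without 3-day replicate 2 or sham replicate 3, 1 lower without sham replicate 3). The ER chaperone Hyou1 was at 33.8, 51.9 and 24.6 CPM in sham and 102, 126 and 90.7 CPM at 3 days (log2 fold change 1.53 ± 0.25, adjusted p = 0.00071), and the ubiquitin ligase Syvn1 and the lectin chaperone Calr rose by 1.47 ± 0.25 and 1.4 ± 0.26. Of 21 cytosolic heat shock genes 0 rose and 2 fell (1 higher without sham replicate 4, 0 lower without 3-day replicate 2, 1 lower without 3-day replicate 1 or 3-day replicate 3), and the abundant Hspa8 was at 385, 329 and 299 CPM and 371, 385 and 379 CPM. Eif2ak2, the kinase PKR that senses double-stranded RNA, rose by 1.35 ± 0.19. Genes that glucocorticoids induce gave 5 rises and 3 falls among 22 (3 higher without 3-day replicate 2, 3-day replicate 3 or sham replicate 2, 8 higher without sham replicate 4): Tgm2 rose by 1.72 ± 0.24 and Sgk1 by 0.81 ± 0.16, and the receptor gene Nr3c1 had a log2 fold change of -0.15 ± 0.15. In the clock list 1 of 22 rose and 2 fell (2 higher without sham replicate 2 or sham replicate 4, 1 lower without 3-day replicate 1 or 3-day replicate 2, 4 lower without sham replicate 2, 5 lower without sham replicate 3). The rise was Bhlhe40, a repressor that is also induced by many stimuli, at 9.69, 13.5 and 10.9 CPM in sham and 79.7, 98.5 and 89 CPM at 3 days (log2 fold change 2.98 ± 0.22, adjusted p = 1.5e-06), and Tef fell by 0.89 ± 0.18.

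Among purinergic genes, through which microglia sense ATP and ADP, more fell than rose. Of 23 tested 2 rose and 6 fell (1 higher without 3-day replicate 1 or 3-day replicate 2). The receptor P2ry2 was among the rises, with a log2 fold change of 5.59. Its size was unstable, at 4.87 without sham replicate 2 and 7.68 without sham replicate 3. P2ry13 was at 241, 211 and 458 CPM in sham and 90.9, 68.3 and 57.5 CPM at 3 days (log2 fold change -2.07 ± 0.32, adjusted p = 0.00048). P2ry12, the receptor that steers processes towards ADP, was at 663, 328 and 639 CPM and 145, 131 and 97.2 CPM (log2 fold change -2.13 ± 0.34, adjusted p = 0.00065). Entpd1, which clears ATP outside the cell, fell by 0.89 ± 0.17, and the receptor of phagocytosis P2ry6 was at 119.6, 98.8 and 179.7 CPM and 119.8, 139 and 121 CPM with overlapping groups. Of 29 calcium, chloride and TRP channel genes 8 rose and 0 fell (5 higher without 3-day replicate 2 or 3-day replicate 3, 1 lower without sham replicate 2). Cacna1a was at 73.6, 81.8 and 59.6 CPM and 195, 188 and 180.0 CPM (log2 fold change 1.39 ± 0.17, adjusted p = 9.3e-05), and Cacna1d and Trpv4 rose by 0.80 ± 0.14 and 1.63 ± 0.27.

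Genes of adhesion and matrix digestion were among those that rose. Of 25 urokinase, ADAM and metalloprotease genes 10 rose and 0 fell (8 to 12 with each library left out). Adam8, a sheddase of leukocytes, was at 17.1, 5.26 and 6.16 CPM in sham and 254, 308 and 247 CPM at 3 days (log2 fold change 4.76 ± 0.39, adjusted p = 2.8e-06), with a log2 fold change of 5.54 without sham replicate 2. Plau, the urokinase that starts plasmin formation, and its receptor Plaur rose by 1.67 ± 0.20 and 2.41 ± 0.30. The sheddases Adam10 and Adam17 had log2 fold changes of -0.14 ± 0.16 and -0.02 ± 0.21. Of 33 focal adhesion and actin genes 12 rose and 2 fell (1 lower without 3-day replicate 2 or 3-day replicate 3). Tln1, which links integrins to actin, was at 193, 268 and 181 CPM and 476, 551 and 552 CPM (log2 fold change 1.30 ± 0.18, adjusted p = 0.00028), and Flna and Actn1 rose by 1.42 ± 0.21 and 1.63 ± 0.25. Of 26 integrin genes 3 rose and 1 fell (6 higher without sham replicate 4, 2 lower without sham replicate 4). Itga9 was at 125, 113 and 118 CPM in sham and 28.9, 40.8 and 34.2 CPM at 3 days (log2 fold change -1.77 ± 0.25, adjusted p = 0.00024), and Itga5, the fibronectin receptor chain, was at 21.6, 48.9 and 80.1 CPM and 156, 216 and 192 CPM (log2 fold change 1.92 ± 0.34, adjusted p = 0.0015). Elmo1, the engulfment adaptor, was at 1102, 974 and 1279.6 CPM in sham and 563, 586 and 527 CPM at 3 days (log2 fold change -1.0 ± 0.18, adjusted p = 0.0016).

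Transcription factors of microglial identity changed singly. Of 37 in the list 6 rose and 4 fell (2 higher without 3-day replicate 2, 3 higher without 3-day replicate 1 or 3-day replicate 3). These are 16.2% and 10.8% of the list, beside 10.9% and 9.17% of all tested genes. Maf was at 539, 376 and 729 CPM in sham and 228, 221 and 183 CPM at 3 days (log2 fold change -1.38 ± 0.21, adjusted p = 0.00054), and Mef2c fell by 0.74 ± 0.17. Runx3 was at 0.908, 1.60 and 1.68 CPM and 8.43, 7.58 and 8.45 CPM (log2 fold change 2.57 ± 0.47, adjusted p = 0.0017). The abundant Zeb2 and Runx1 did not pass the test, at -0.36 ± 0.19 and -0.46 ± 0.20. In the Notch and Wnt list 6 of 25 rose and 2 fell (1 higher without 3-day replicate 1, 2 higher without 3-day replicate 3, 3 higher without 3-day replicate 2, 0 lower without 3-day replicate 1, 3-day replicate 2 or 3-day replicate 3), led by the Notch ligand Jag1 at 3.33, 3.20 and 5.60 CPM in sham and 36.2, 36.3 and 41.7 CPM at 3 days (log2 fold change 3.26 ± 0.29, adjusted p = 5.8e-06).

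Kind and span of the gene went with direction. Of 13904 protein-coding genes 13% were higher and 7.90% lower. Of 1230 unconfirmed transcripts that the annotation marks TEC, 2.60% were higher and 18.4% lower, and of 155 sense-intronic transcripts 3.23% and 19.4%. Lower sense-intronic calls went from 30 to 18 when sham replicate 4 was left out, and lower TEC calls from 226 to 210. Over all tested genes lower calls went from 1692 to 1946 in that setting. Protein-coding genes spanning over 300 kb were higher in 4.30% and lower in 16% of 512 cases, and those under 10 kb in 13.2% and 5.07% of 3135. Without sham replicate 4 the lower shares were 11.1% and 10.2%, so the gap in lower calls between long and short genes nearly closed. The gap in higher calls remained (6.25% against 13%).

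Markers of other cell types also moved, and sham replicate 4 weighs on them. Monocyte markers summed to 245, 249 and 462 CPM in sham and 1757, 1817 and 1350 CPM at 3 days, 5.15-fold higher on the means and 6.64-fold without sham replicate 4. Of 14 listed markers 11 were tested and 6 were higher (3 without 3-day replicate 3). Fn1 made up most of the 3-day sums, at 19.7, 17.1 and 72.2 CPM in sham and 1179, 1260.3 and 775 CPM at 3 days. Without Fn1, a check chosen after seeing the data, the sum was 226, 232 and 389 CPM in sham and 577, 557 and 576 CPM at 3 days, 2.02-fold higher. S100a4 and Hp stayed below 1 CPM in every library. The monocyte receptor Ccr2 was at 14.1, 8.92 and 9.52 CPM and 22.5, 27.5 and 34.8 CPM (log2 fold change 1.37 ± 0.37, adjusted p = 0.017), and its call was lost without 3-day replicate 3 or sham replicate 3 (adjusted p = 0.083 and 0.054). Markers of border-associated macrophages fell in 5 of 10 tested cases and rose in 1 (2 higher without sham replicate 4, 3 lower without 3-day replicate 1), with Mgl2 at 13.3, 23.3 and 22.1 CPM in sham and 3.19, 1.82 and 3.65 CPM at 3 days. Their sum overlapped between the groups, at 1043, 939 and 1411 CPM in sham and 911, 1114 and 1095 CPM at 3 days, and the marker that rose, the scavenger receptor Stab1, was at 516, 505 and 510.3 CPM and 755, 858 and 791 CPM. Neutrophil markers summed to 601, 705 and 723 CPM in sham and 983, 1171 and 957 CPM at 3 days, 1.53-fold higher, and the groups did not overlap. Nearly all of that sum was the G-CSF receptor Csf3r, at 594, 699.5 and 716 CPM and 972, 1161 and 937 CPM, the 1 of 4 tested neutrophil markers that rose (0 higher without 3-day replicate 1, 3-day replicate 2, 3-day replicate 3 or sham replicate 2). The sum was also taken without Csf3r, a check chosen after seeing the data. It was then 6.51, 5.03 and 7.00 CPM in sham and 10.2, 9.41 and 20.7 CPM at 3 days, 2.17-fold higher. Of the neutrophil markers Ly6g, Retnlg, Camp, Elane and Stfa2l1 were below 1 CPM in every library, and of T and NK cell markers 9 were.

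Endothelial markers summed to 52.1, 51.9 and 227 CPM in sham and 340, 402 and 845 CPM at 3 days, 4.80-fold higher and 10.2-fold without sham replicate 4. Of 15 tested markers 13 were higher, and 5 without 3-day replicate 3. Fibroblast and pericyte markers summed to 72.5, 89.6 and 570 CPM in sham and 397, 430 and 1008 CPM at 3 days, 2.51-fold higher and 7.55-fold without sham replicate 4, and sham replicate 4 lay inside the 3-day range. Astrocyte markers overlapped between the groups, at 738, 1733 and 5938 CPM in sham and 2479, 1587 and 2501 CPM at 3 days. Neuron markers were lower in 9 of 16 tested cases (6 to 9 with each library left out), with Snap25, of the synaptic vesicle fusion machinery, at 668, 950.1 and 2058 CPM in sham and 384, 453 and 364 CPM at 3 days. The part of these cells in the gene lists above was not tested. In 7 of the 15 marker lists the groups did not overlap. Of single tested genes, 18.7% lay above without overlap at 3 days and 15.5% below. With sums scaled by the total count alone, an alternative chosen after seeing the data, there were 6 such lists. Erythroid markers (21.0, 40.5 and 24.6 CPM in sham and 42.4, 41.7 and 49.6 CPM at 3 days with TMM) then overlapped.

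**Figure D5:**
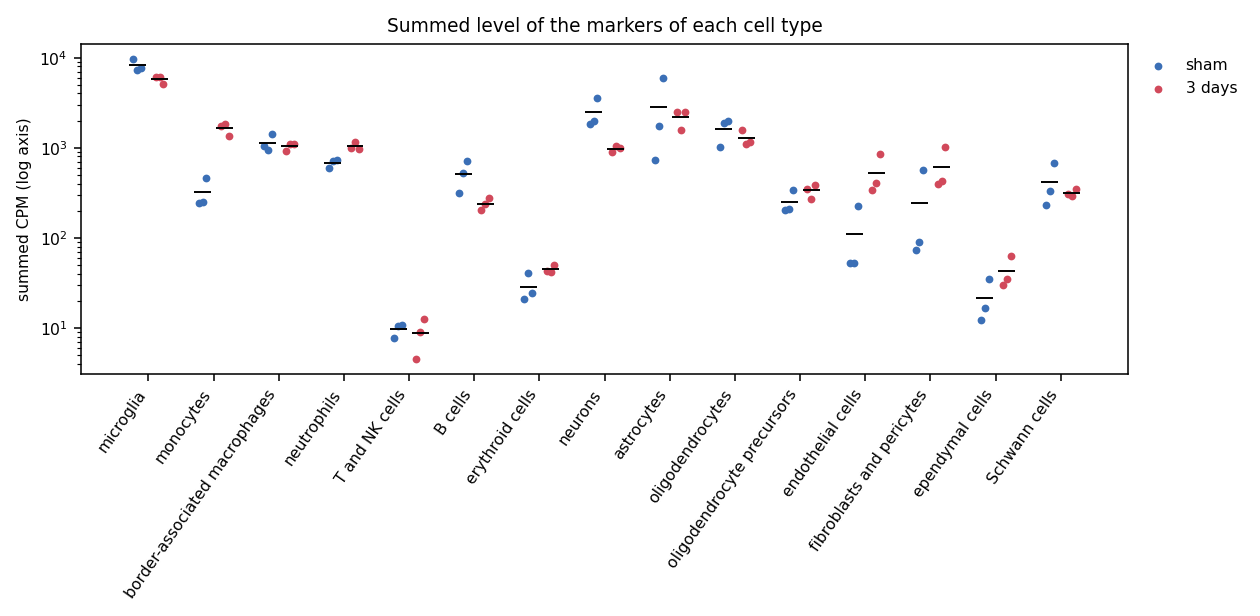
Summed CPM of the markers of 15 cell types in each library, on a log axis. Blue points are sham and red points 3-day libraries, and black lines are means. Monocyte and endothelial sums are higher in every 3-day library, microglial and neuron sums lower, and the highest sham point for astrocytes is replicate 4.

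The 3-day state was compared with the later times directly. These tests share the 3-day libraries with the comparison above. Over all genes 1387 were higher at 3 days than at 7 days (7.52%) and 1079 lower (5.85%). Against 14 days the counts were 948 (5.14%) and 401 (2.17%). All 36 mitosis genes were higher at 3 days than at 7 and than at 14 days, and Cenpe averaged 51.8 CPM at 7 days and 43.9 CPM at 14 days against 319 CPM at 3 days and 26.8 CPM in sham. Of 31 interferon-stimulated genes 16 were higher at 3 than at 7 days and 23 higher than at 14 days. Of 76 oxidative phosphorylation subunits 17 were lower at 3 than at 7 days and 0 lower than at 14 days, and of 78 ribosomal protein genes 13 and 1. Of 15 endothelial markers 14 were higher at 3 than at 7 days and 1 higher than at 14 days. Of 21 V-ATPase subunits 0 were higher and 1 was lower at 3 days against each later time.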

How the data were processed

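Nuclear RNA-seq libraries of GFP-positive nuclei from mouse spinal cord were used, 3 from 3 days after injury and 3 from sham surgery, with 6 later libraries in the same fit. The deposited values are raw counts per gene and RPKM, which the authors made with featureCounts 1.4.6-p3 on GRCm38/mm10, per the submitters' processing notes. For the aligner, the strand setting and multi-mapping reads, the method was not given in the sources used here, so reads of a gene and its antisense partner, or of near-identical copies, may not be told apart. The table lists 49585 genes, of which 15460 had no count in any library, and its 37 mitochondrial rows hold 0 counts.

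Counts were fitted with edgeR 4.0.16 in R 4.3.3 (quasi-likelihood test, 12 libraries in 4 groups, TMM scaling, filterByExpr, Benjamini-Hochberg adjustment at 0.05) over 18451 genes holding 99.6% of counts. Changes past 2-fold were tested with glmTreat, and intervals cover 95%. The fit was tested on simulated data. Alternatives were DESeq2 1.42.0, median-ratio size factors, no or a stricter filter (1 CPM in 3 libraries and a mean of 5 CPM), the 6 libraries alone, the replicate number as a block, limma 3.58.1 on log2 of the deposited RPKM plus 1 or 0.1, and each of the 6 libraries left out. Marker sums use the same TMM scale, with total-count scaling and sums without Fn1 or Csf3r added after seeing the data. Motifs were searched in RefSeq promoter windows, with the first listed window of each gene. Figures were drawn with matplotlib 3.10.9 in Python 3.11.15.

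Genes were named by rule: the 10 largest rises and 10 largest falls whose groups did not overlap, at 10 CPM or more in the higher group and outside the lists, the 8 largest gains and 8 largest losses in CPM, up to 4 called and 2 abundant uncalled members of each list, 6 abundant genes with narrow intervals, Plxnb2, and runs of 3 or more neighbours. The members, the lists and the rule were chosen with earlier results of these data known. Genes named outside the rule are said to be so. Some items are not reported here.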

Additional observations from a re-analysis of the deposited data

Results flagged for a closer look

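For 9 genes the difference from sham was called higher at 3 days and lower at a later day, and the direct difference between those days was called too (edgeR's quasi-likelihood test, Benjamini-Hochberg adjustment). These genes were chosen after their values were seen.

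Against 7 days, the log2 difference was 2.94 for Col4a2, a basement membrane collagen (adjusted p = 0.00034, mean 17.7 CPM in sham, 60.1 CPM at 3 days and 7.72 CPM at 7 days). It was 2.66 for the endothelial adhesion molecule Pecam1 (adjusted p = 0.0008) and 2.08 for the receptor kinase Kit (adjusted p = 0.0019). The sum of the endothelial markers was higher in every 3-day library than in every sham library. The part of endothelial cells in these values was not tested.

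Against 14 days, the log2 difference was 2.66 for Cenpf, a kinetochore protein (adjusted p = 0.00025, mean 62.6 CPM in sham, 169 CPM at 3 days and 26.7 CPM at 14 days). It was 2.11 for the cytokinesis kinase Cit, 2.63 for the replication kinase Cdc7, 3.27 for the cadherin Celsr3, 2.14 for properdin (Cfp) and 1.60 for the scavenger receptor Stab1. The 3-day calls of Cfp, Kit, Pecam1, Cdc7 and Celsr3 were lost with some single library left out, and those of Cenpf, Cit, Col4a2 and Stab1 were kept. By the same quasi-likelihood test, the 7-day falls below sham had adjusted p = 0.045 (Col4a2), 0.044 (Kit) and 0.012 (Pecam1). The 14-day falls had adjusted p from 0.00097 (Stab1) to 0.025 (Cenpf). These later falls were not refitted with single libraries left out.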

How the results depend on the processing

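Of 328 named genes called at 3 days, 251 were called in the same direction under every alternative that gave a value for them, 77 were lost under at least 1 and 0 reversed. The counts of all genes moved with the libraries. The 6 libraries fitted alone gave 1061 higher and 756 lower genes, and 54 lower list members in place of 104. Leaving out 1 library gave 1109 to 2206 higher and 757 to 2047 lower genes, 230 to 534 higher and 16 to 108 lower genes past 2-fold, and 55 to 164 lower list members. A 1.5-fold threshold gave 845 higher and 388 lower genes, and a band of log2 1 held 6155 genes in place of 798. Counts were least stable without 3-day replicates 2 and 3. With the replicate block, 1868 genes were higher and 1112 lower, but the numbers give no sign of pairing (correlations of 0.04 and -0.09 between same-numbered libraries). With 3 libraries a group, the smallest exact p for a single sum is 0.10.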
